A study of Mus musculus with 14 samples.

Results

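The genes described here are 48 members of the machinery that moves new proteins into and through the first stations of the secretory pathway, grouped as targeting and translocation into the endoplasmic reticulum (ER), N-glycosylation, the COPII coat, the COPI coat, and the cargo and retrieval receptors. They were taken from the deposited count table by gene symbol, through the Ensembl identifiers of its rows, and are 48 of 37409 deposited genes. All 48 passed the filter on low counts, which left 17141 genes for testing. The list was drawn up with results from these libraries already known: Kdelr3, Sec24d, Prrc1 and Sec16b had been seen lower in the polymer-treated groups than in vehicle-treated tumours. The polymer-treated and D5W libraries thus took part in the choice. Values of these 4 genes are therefore given as a description with no p-value, and member counts against the vehicle are given with no reading of them.

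The study sequenced bulk RNA from mouse tumours grown from B16F10 melanoma cells, a pigmented line from the mouse strain C57BL/6. The cells were implanted subcutaneously at the right hind limb of animals of that strain, and tumours of the day 7 groups were treated by 1 injection into the tumour. The siPD-L1 group (4 libraries, day 7) received an immunoactive polymer, named 2E′ in the labels, with the chemotherapy drug PTX (read here as paclitaxel) and an siRNA against PD-L1, an inhibitory ligand of T cells. The siNeg group (4 libraries, day 7) received the same polymer and PTX with a negative control siRNA. The D5W group (3 libraries, day 7) received the vehicle, 5% dextrose in water. The day 0 controls (3 libraries) were collected at day 0, and they are read here as untreated, since their titles name no treatment. No source used here says that each library is a separate animal, so p-values measure the spread between these libraries. Day 7 and day 0 libraries differ in days of tumour growth and in collection as well as in treatment, and these cannot be told apart. In bulk RNA, fewer cells of a type and less RNA per cell cannot be told apart either.

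A secreted or membrane protein is recognised as it leaves the ribosome by the signal recognition particle, threaded through the Sec61 channel of the ER membrane, cut free of its signal peptide and given N-linked sugars by the oligosaccharyltransferase. Folded cargo leaves in vesicles built by the COPII coat at ER exit sites, often gathered by cargo receptors. The COPI coat carries material back, and the KDEL receptors return escaped ER chaperones that end in a KDEL-like signal. Cells that secrete heavily, and tumour cells that lay down matrix or pigment, depend on this traffic, and several of its genes are known targets of the unfolded protein response through the factors XBP1 and ATF6.

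Promoter sequence was the feature of the members that their selection had not used. RefSeq windows of 250 bases before to 50 bases after the annotated start (assembly GRCm38.p6) matched 40 of the 48 members. Sec61a1, Ssr2, Spcs3, Prrc1, Arcn1, Kdelr2, Tmed2 and Lman1 had no entry. The windows were searched on both strands for TGACGTGG, the core of the unfolded protein response element that XBP1 is known to bind. The match stood in 6 of the 40 member windows (15%), against 193 of all 27025 genes with a window (0.714%) and 121 of the 11857 tested genes with one (1.02%). Of the 6, 3 (Sec16b, Sec24d and Kdelr3) are genes that led to the list, and without those it stood in 3 of 37 windows (8.11%). The 6 matches are shown as 30 bases each, read along the strand of the gene, with the match in capitals; CCACGTCA is TGACGTGG on the other strand.

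Sec16b: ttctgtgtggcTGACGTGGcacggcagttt

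Sec23a: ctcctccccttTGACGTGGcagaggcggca

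Sec24d: gcccgggcgccTGACGTGGcactagcaacc

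Copb1: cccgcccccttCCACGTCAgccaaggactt

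Copb2: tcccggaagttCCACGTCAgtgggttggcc

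Kdelr3: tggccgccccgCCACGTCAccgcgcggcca

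The stretches lie at chr1:157506741-157506770 (Sec16b, plus strand), chr12:59011993-59012022 (Sec23a, minus strand), chr3:123267459-123267488 (Sec24d, plus strand), chr7:114254690-114254719 (Copb1, minus strand), chr9:98563713-98563742 (Copb2, plus strand) and chr15:79516367-79516396 (Kdelr3, plus strand). The first base of the match stood 44 bases before the RefSeq start in Sec16b, 26 in Sec24d, 28 in Copb1, 7 in Copb2 and 30 in Kdelr3, and 6 bases after it in Sec23a. Of the 6 genes, 3 belong to the COPII list and 2 to the COPI list. Among 60 other secretory pathway genes, 50 had a window and 3 of them held the match (6%: Stx5a, Arf1 and Gbf1). On a list of ER chaperones and related genes, 17 had a window and 0 of them held the match. The longer ER stress response elements known as ERSE and ERSE-II were in 0 member windows (0.137% and 0.0444% of all genes), and the cyclic AMP element TGACGTCA was in 1, that of Cope (2.5% against 2.03% of all genes).

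Kdelr3 had the largest fold change against day 0 in siPD-L1 tumours, and the largest after Sec16b in siNeg tumours, so its 250 bases before the start (chr15:79516158-79516407, plus strand) are shown with the same match in capitals.

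Kdelr3 promoter: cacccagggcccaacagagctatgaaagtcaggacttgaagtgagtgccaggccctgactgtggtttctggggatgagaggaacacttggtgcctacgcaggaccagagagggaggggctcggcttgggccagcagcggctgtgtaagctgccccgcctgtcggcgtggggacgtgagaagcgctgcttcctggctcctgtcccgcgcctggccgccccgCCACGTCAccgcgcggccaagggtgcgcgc

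The 14 libraries held 60166278 to 85941309 counts. Mitochondrial genes took 2.66 to 7.5% of the counts in 13 libraries and 15.24% in day 0 replicate 2, and ribosomal RNA-like genes took 13.89% in siPD-L1 replicate 1 against 0.5166 to 1.136% elsewhere. The sample labels give the cell type as CT26, a colon carcinoma line, whereas the protocol names B16F10: the pigment genes Dct, Tyrp1 and Pmel had medians over the libraries of 7915, 5068 and 3764 counts per 1000000 counts of the library (CPM, scaled by edgeR's TMM factors, as for all levels here), while the epithelial genes Epcam, Krt20 and Krt8 had medians of 0.052, 0.019 and 0. The rest of the 8 listed epithelial genes were Cdx1 and Cdx2, with medians of 0.016 and 0, and Vil1, Cdh1 and Lgals4, with 3.84, 2.06 and 2.08. Cd274, which encodes PD-L1, had 15.8, 16.5, 17.0 and 20.8 CPM in siPD-L1 tumours and 17.6, 31.6, 28.8 and 21.6 CPM in siNeg tumours, against 14.8, 13.8 and 18.5 CPM in D5W tumours and 11.8, 12.5 and 11.8 CPM in day 0 tumours. The siPD-L1 and siNeg ranges overlapped, with a log2 fold change of -0.50 ± 0.16 and an edgeR adjusted p of 0.515.

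Per kilobase of exon, the most abundant members were Rpn1, an oligosaccharyltransferase subunit, with a median of 154 CPM per kb over the 14 libraries, Ssr3, a translocon-associated protein, with 134, and Sec61a1, the channel itself, with 89.2. The least abundant were Sec16b at 0.173 and Srp54a at 1.47 CPM per kb. Reads of Srp54a, the GTP-binding subunit of the signal recognition particle, cannot be separated with certainty from those of its near-identical copies Srp54b and Srp54c. Across the libraries Sec16b ranged 12-fold and Kdelr3 4.41-fold, whereas the COPI subunits Copb1 and Copa ranged 1.17-fold and 1.19-fold. Sec16b rested on 24 to 314 counts and Kdelr3 on 315 to 1244, against 354 to 1024 for Srp54a and 42171 to 66731 for Rpn1. The group mean was highest in day 0 tumours for 24 members and in D5W tumours for 21, and lowest in siNeg tumours for 24 and in siPD-L1 tumours for 19.

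**Figure D1:**
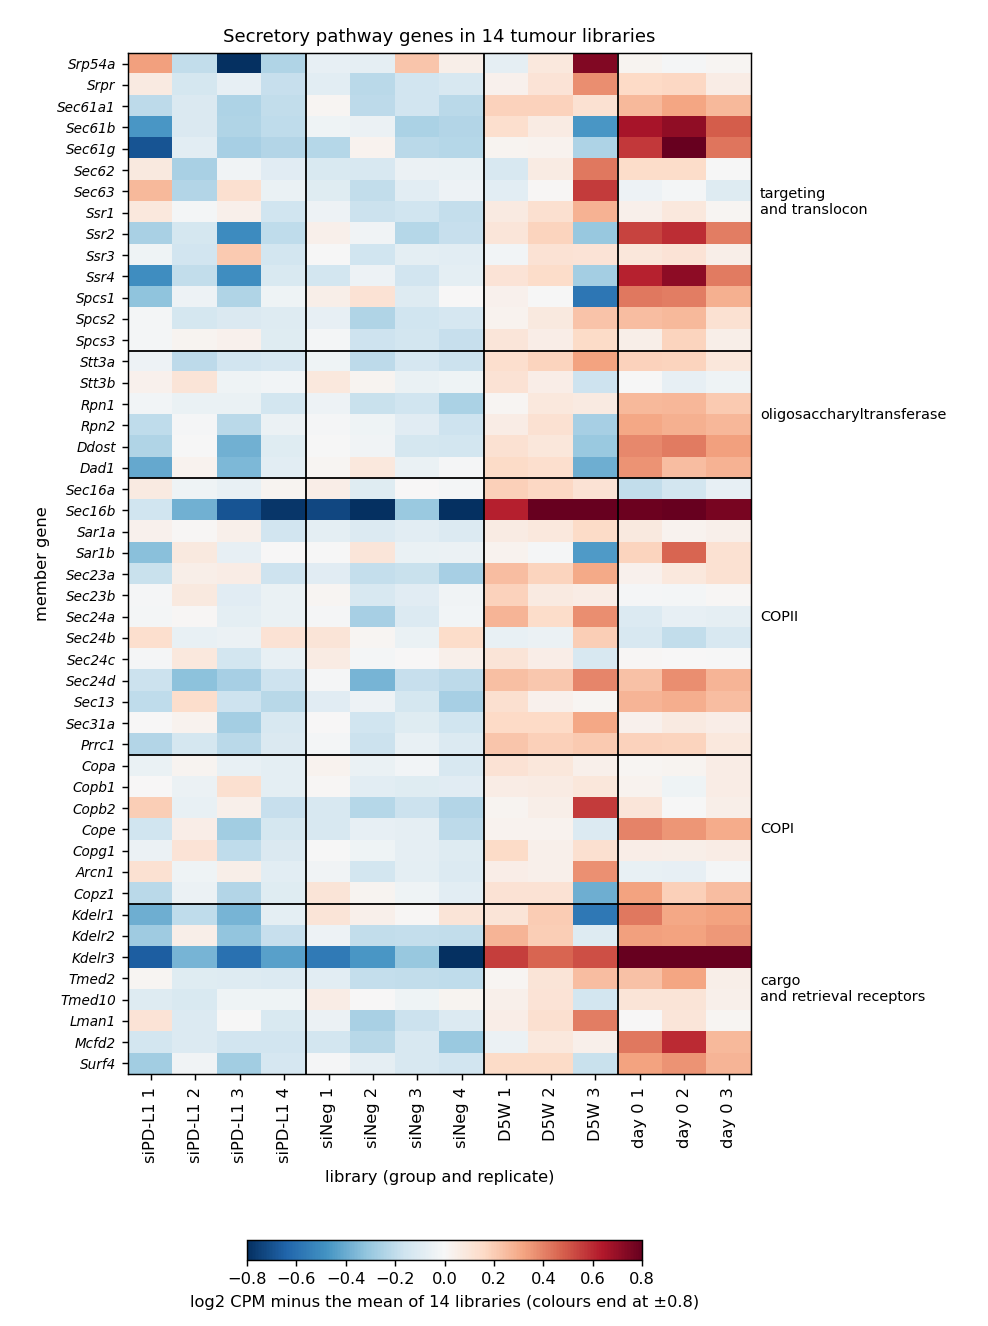
Each row is 1 of the 48 genes, grouped by machine, and each column 1 library (siPD-L1, siNeg, D5W, day 0); colour is log2 CPM minus the gene's mean over the 14 libraries, with colours ending at 0.8 in either direction. Day 0 columns are above the mean for most translocon, oligosaccharyltransferase and receptor genes, D5W replicate 3 differs from the other D5W libraries in many rows, and Sec16b and Kdelr3 are low in all 8 polymer-treated libraries.

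Polymer-treated tumours had lower levels of many members than day 0 tumours and higher levels of none that passed the test. In siPD-L1 tumours 24 of the 48 members fell (edgeR quasi-likelihood test, adjusted p under 0.05), where 10.4% of all tested genes were called lower, and 0 were called higher, where 11.5% of all genes were. The median log2 fold change of the members was -0.28, against 0.01 for all tested genes. In siNeg tumours 23 fell, where 7.91% of all genes were called lower, and 0 were called higher against 10.5%; the median was -0.26, against 0.01 for all genes. Without the 4 genes that led to the list, 20 of 44 members (45.5%) fell in siPD-L1 tumours and 19 of 44 (43.2%) in siNeg tumours. All siPD-L1 libraries lay under all day 0 libraries for 28 members (18.0% of all tested genes did so), and all siNeg libraries did for 36 (21.1%). Fitting only the groups compared gave 35 lower and 1 higher in siNeg tumours (17.6% and 18.8% of all genes), and removing the trend with GC content and length gave 37 lower in siPD-L1 and 34 in siNeg tumours (10.7% and 9.52% of all genes). Without D5W replicate 3 and siPD-L1 replicate 1, libraries that stood apart, 27 were lower in siPD-L1 and 31 in siNeg tumours (12.5% and 12.8% of all genes). Scaling by library totals alone gave 23 and 17 lower (5.78% and 2.99% of all genes), without Tmed2 in siPD-L1 and without Srpr, Spcs3, Stt3a, Rpn2, Sec23a and Prrc1 in siNeg tumours.

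In D5W tumours the members divided: 11 were lower than at day 0, where 9.69% of all tested genes were called lower, and 2 were higher, where 11.8% of all genes were. The median was -0.0009, against 0.0025 for all genes. Leaving out day 0 replicate 1 reduced the 11 to 6, leaving out day 0 replicate 2 to 7 and leaving out D5W replicate 3 to 7. The share of all genes called lower also fell in these fits, to 2.7%, 4.51% and 4.34% in that order. Scaling by library totals alone gave 5 (2.21% of all genes), without Rpn2, Ddost, Sar1b, Cope, Kdelr3 and Mcfd2. Without the 4 genes that led to the list, 10 of 44 were lower and 2 higher. The comparisons with day 0 share the day 0 libraries, so each is given with its own values.

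**Figure D2:**
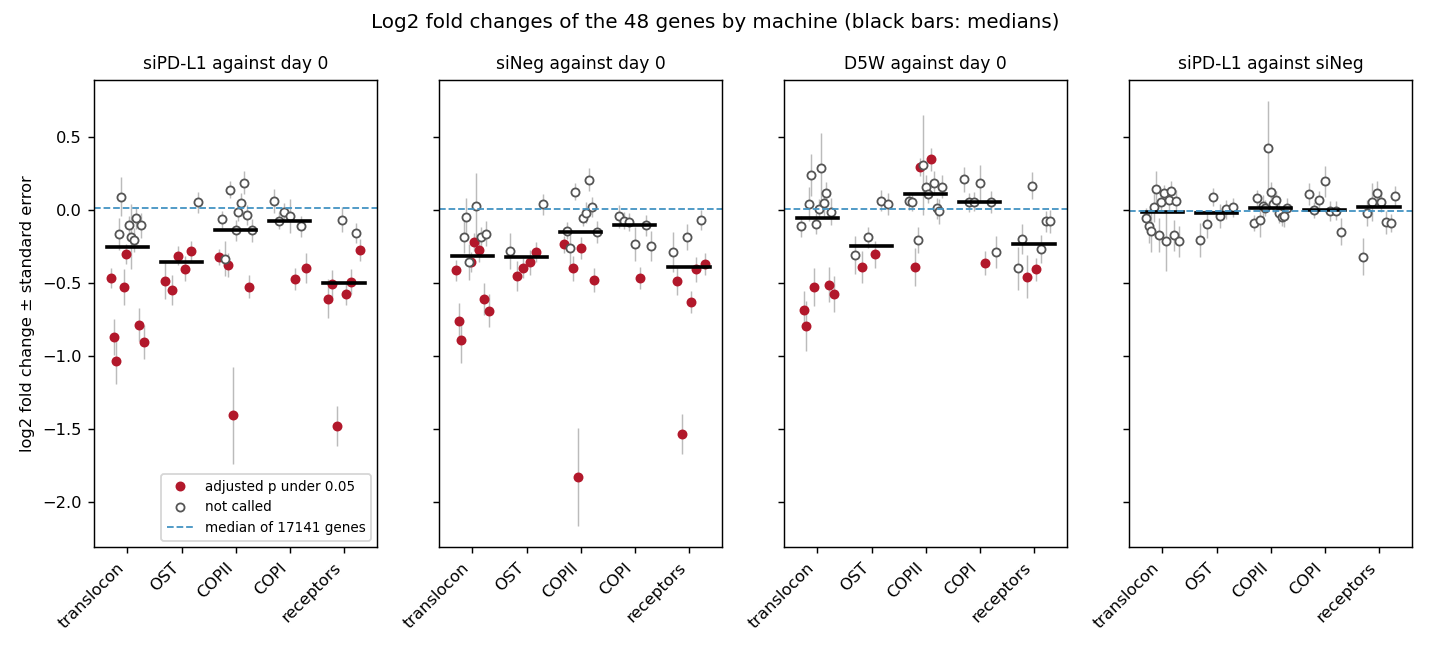
Points are log2 fold changes of the 48 genes with standard errors, by machine, in 4 panels (siPD-L1, siNeg and D5W tumours against day 0 tumours, and siPD-L1 against siNeg tumours); red marks an adjusted p under 0.05, black bars the median of each machine and the dashed line the median of the 17141 tested genes. Red points lie below 0 for 24 and 23 genes in the siPD-L1 and siNeg panels, for 11 genes in the D5W panel with 2 above 0, and there are 0 in the siPD-L1 against siNeg panel.

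Of the 14 targeting and translocon genes, 7 fell in siPD-L1 tumours against day 0 (median log2 fold change -0.25) and 8 in siNeg tumours (median -0.31), where 10.4% and 7.91% of all tested genes were called lower. Those with the lowest fold changes in both groups were Sec61g, Sec61b, Ssr4 and Ssr2. Sec61b encodes the beta subunit of the channel and lies at chr4:47474658-47483242 on the plus strand. It had 52.3, 66.9, 61.2 and 63.0 CPM in siPD-L1 tumours, 70.8, 70.2, 60.9 and 61.5 in siNeg tumours, 79.4, 75.8 and 52.5 in D5W tumours and 114, 119 and 102 in day 0 tumours. Every day 0 library stood above every day 7 library. The fold changes against day 0 were -0.87 ± 0.12 in siPD-L1, -0.76 ± 0.12 in siNeg and -0.69 ± 0.13 in D5W tumours on the log2 scale (edgeR adjusted p = 0.000451, 0.00121 and 0.00364). Sec61g, the gamma subunit, fell likewise, by 1.04 ± 0.16, 0.90 ± 0.16 and 0.80 ± 0.17 on the log2 scale in the same order (adjusted p = 0.000699, 0.00205 and 0.00643). Sec61a1, the pore-forming subunit, fell in siPD-L1 tumours (-0.47 ± 0.07, adjusted p = 0.00058) and in siNeg tumours (-0.42 ± 0.07, adjusted p = 0.00128), and was -0.11 ± 0.07 in D5W tumours (adjusted p = 0.278). It had 538, 574, 524 and 543 CPM in siPD-L1 tumours, 627, 537, 559.8 and 536 in siNeg tumours, 705, 707 and 677 in D5W tumours and 744, 774 and 744 in day 0 tumours, so both polymer groups lay under both other groups.

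Ssr1, Ssr2, Ssr3 and Ssr4 encode the translocon-associated protein complex, which helps some signal peptides open the channel and sits beside the oligosaccharyltransferase. Ssr4 had 26.3, 32.5, 26.3 and 34.1 CPM in siPD-L1 tumours, 33.6, 36.1, 33.5 and 35.1 in siNeg tumours, 40.1, 41.2 and 30.8 in D5W tumours and 56.9, 61.0 and 49.7 in day 0 tumours. The day 0 libraries were above all others, and all but replicate 3 of the D5W libraries were above the polymer groups. Ssr4 fell against day 0 by 0.91 ± 0.11 in siPD-L1, 0.69 ± 0.11 in siNeg and 0.58 ± 0.12 in D5W tumours (log2 scale, adjusted p = 0.000181, 0.00125 and 0.00596). Ssr2 fell by 0.79 ± 0.11, 0.61 ± 0.11 and 0.51 ± 0.12 (adjusted p = 0.000451, 0.00249 and 0.00986). The other 2 subunits did not pass the test in any group: Ssr1 was -0.06 ± 0.07, -0.19 ± 0.07 and 0.11 ± 0.08, and Ssr3 -0.11 ± 0.09, -0.16 ± 0.09 and -0.01 ± 0.09, in siPD-L1, siNeg and D5W tumours.

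Among the signal peptidase subunits, Spcs2 fell in both polymer groups (-0.30 ± 0.07 in siPD-L1 and -0.36 ± 0.07 in siNeg tumours, adjusted p = 0.0061 and 0.00275). Spcs1 fell in siPD-L1 tumours (-0.53 ± 0.12, adjusted p = 0.00773) and D5W tumours (-0.53 ± 0.13, adjusted p = 0.0124, and 0.0562 without day 0 replicate 1), with -0.36 ± 0.12 in siNeg tumours (adjusted p = 0.055). Exons of Spcs1 overlap a gene on the opposite strand over 16.3% of their length and those of Ssr2 over 12.8%, and the strand setting of the counting is not given in the sources used here. Spcs3, a further subunit, and Srpr, the receptor of the signal recognition particle, passed in siNeg tumours (-0.22 ± 0.06 and -0.27 ± 0.08, adjusted p = 0.0253 and 0.0343). Spcs3 lost the call without day 0 replicate 1 or 2 or siNeg replicate 2, 3 or 4 (adjusted p = 0.0617, 0.115, 0.0596, 0.0652 and 0.0744). Srpr lost it without any 1 day 0 library (0.125, 0.105 and 0.0517) or without siNeg replicate 2, 3 or 4 (0.0774, 0.0759 and 0.0686). Sec62 and Sec63, which assist the channel in post-translational import, and Srp54a passed in no comparison with day 0, with log2 fold changes between -0.19 and 0.29. In D5W tumours 5 of the 14 genes fell, where 9.69% of all tested genes were called lower. The median of the 14 was -0.05, or 0.04 with scaling by library totals alone.

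**Figure D3:**
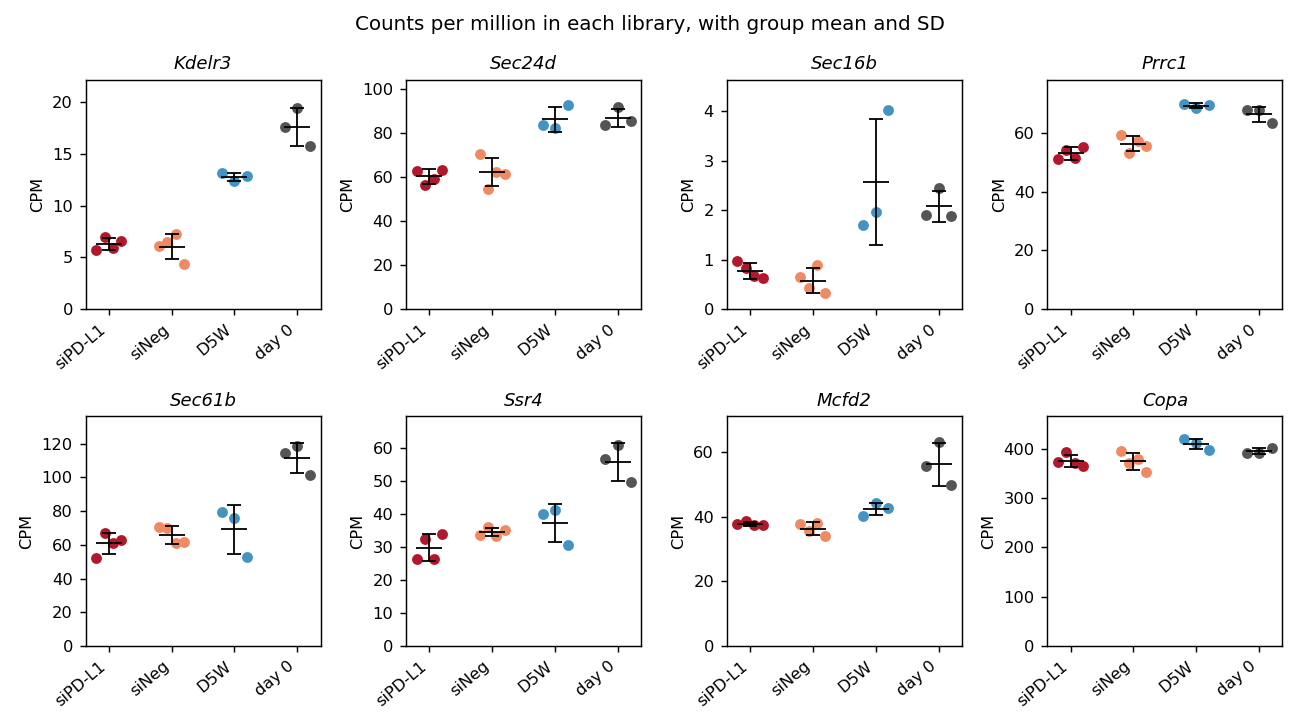
CPM in every library (points) with the group mean and SD (bars) for Kdelr3, Sec24d, Sec16b, Prrc1, Sec61b, Ssr4, Mcfd2 and Copa, with siPD-L1, siNeg, D5W and day 0 from left to right. Kdelr3, Sec24d, Sec16b and Prrc1 are lower in all 8 polymer-treated libraries than in all 6 others, Sec61b and Mcfd2 are highest in the 3 day 0 libraries, and the Copa groups lie between 353 and 419.7 CPM.

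The oligosaccharyltransferase genes that passed the test were all lower. Of 6, 5 fell in siPD-L1 tumours (median -0.36), 4 in siNeg tumours (median -0.32) and 2 in D5W tumours (median -0.25) against day 0, where 10.4%, 7.91% and 9.69% of all tested genes were called lower. Ddost encodes a core subunit shared by both forms of the enzyme. It had 129, 152, 117 and 142 CPM in siPD-L1 tumours, 152, 149.7, 138 and 138 in siNeg tumours, 166, 162 and 124 in D5W tumours and 199, 203 and 191 in day 0 tumours. The 3 day 0 libraries were above all others, and D5W replicate 3 lay inside the range of the polymer groups. Ddost fell by 0.55 ± 0.10 in siPD-L1, 0.45 ± 0.10 in siNeg and 0.39 ± 0.11 in D5W tumours (log2 scale, edgeR adjusted p = 0.00237, 0.00769 and 0.0218). The D5W call was lost without day 0 replicate 1 (0.0733), day 0 replicate 2 (0.0678) or D5W replicate 3 (0.076), with only the groups compared (0.0514), with library totals alone (0.114), and with the trend with GC content and length removed (log2 fold change -0.17, adjusted p = 0.0823). Rpn1, which feeds substrates to the enzyme, had 698, 685, 683 and 640.4 CPM in siPD-L1 tumours, 691, 627, 636 and 596 in siNeg tumours, 716, 753 and 744 in D5W tumours and 848, 853 and 821 in day 0 tumours. Again day 0 stood above the rest, and the fold changes were -0.31 ± 0.07, -0.40 ± 0.07 and -0.19 ± 0.07 (adjusted p = 0.0048, 0.00128 and 0.0699).

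Rpn2, another shared subunit, fell in siPD-L1 tumours (-0.40 ± 0.09, adjusted p = 0.00542), in siNeg tumours (-0.36 ± 0.09, adjusted p = 0.0114) and in D5W tumours (-0.30 ± 0.09, adjusted p = 0.0322). The siNeg call was lost without day 0 replicate 1 (0.0567), and the D5W call without any 1 of the day 0 libraries (0.107, 0.077 and 0.0688) or D5W replicate 3 (0.118). Dad1, a small subunit, fell in siPD-L1 tumours (-0.49 ± 0.12, adjusted p = 0.0124, and 0.0624 without day 0 replicate 1) and was -0.28 ± 0.12 in siNeg tumours (adjusted p = 0.125).

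Stt3a and Stt3b are alternative catalytic subunits: Stt3a works beside the translocon on growing chains, and Stt3b on sites that were skipped. Stt3a had 280.5, 249, 259.6 and 263 CPM in siPD-L1 tumours, 282, 249.9, 263 and 256 in siNeg tumours, 316, 327 and 362 in D5W tumours and 328, 327 and 308 in day 0 tumours, so each D5W and day 0 library stood above every polymer-treated library. Stt3b had 317, 333, 303 and 305 CPM in siPD-L1 tumours, 328, 315, 298 and 303 in siNeg tumours, 336, 321 and 276 in D5W tumours and 309, 296 and 303 in day 0 tumours, with overlapping groups. Stt3a fell by 0.29 ± 0.07 in siPD-L1 and 0.29 ± 0.07 in siNeg tumours (adjusted p = 0.00937 and 0.0104), and these calls were lost without day 0 replicate 1 (0.0514 and 0.0563). In D5W tumours Stt3a was 0.06 ± 0.07 (adjusted p = 0.567), and Stt3b was 0.05 ± 0.07, 0.04 ± 0.07 and 0.04 ± 0.08 in siPD-L1, siNeg and D5W tumours. Per kilobase of exon, the ratio of Stt3a to Stt3b averaged 0.396 in siPD-L1, 0.399 in siNeg, 0.514 in D5W and 0.500 in day 0 tumours.

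In the fit used throughout, the COPII genes changed in a minority of members. Of 13, 4 fell in siPD-L1 tumours (median -0.14) and 5 in siNeg tumours (median -0.15) against day 0, and 3 of these in each group are among the 4 genes that led to the list. The shares of all tested genes called lower were 10.4% and 7.91%. With the trend with GC content and length removed, 7 of the 13 were called lower in siPD-L1 tumours (median -0.26). In siNeg tumours 8 were (median -0.24), and the shares of all genes were then 10.7% and 9.52%. The COPII counts thus depend on that choice. Sec24d, at chr3:123267455-123365641, encodes 1 of the 4 Sec24 proteins that select cargo for the vesicle. It had 62.8, 56.4, 59.0 and 63.1 CPM in siPD-L1 tumours and 70.3, 54.8, 62.4 and 61.3 CPM in siNeg tumours, against 83.7, 82.2 and 92.9 CPM in D5W tumours and 83.5, 91.6 and 85.6 CPM in day 0 tumours. The polymer-treated libraries lay under all D5W and day 0 libraries, with no overlap. The log2 fold changes were -0.53 ± 0.08 in siPD-L1, -0.48 ± 0.08 in siNeg and -0.01 ± 0.09 in D5W tumours against day 0, and -0.52 ± 0.08 and -0.47 ± 0.08 in siPD-L1 and siNeg against D5W tumours.

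Sec16b, at chr1:157506728-157568425, encodes the shorter of the scaffold proteins of ER exit sites. It had 0.983, 0.834, 0.671 and 0.630 CPM in siPD-L1 tumours and 0.653, 0.431, 0.888 and 0.335 CPM in siNeg tumours, against 1.70, 1.96 and 4.03 CPM in D5W tumours and 1.91, 2.44 and 1.88 CPM in day 0 tumours. All polymer-treated libraries were under 1 CPM and all others above 1.5 CPM, with D5W replicate 3 the highest. Its log2 fold changes were -1.41 ± 0.33 and -1.83 ± 0.34 in siPD-L1 and siNeg tumours against day 0, -1.72 ± 0.33 and -2.14 ± 0.33 against D5W, and 0.31 ± 0.34 in D5W tumours against day 0, which turned to -0.18 without D5W replicate 3. Its larger relative Sec16a, the main organiser of exit sites, had 155, 144, 142 and 149.7 CPM in siPD-L1 tumours, 153, 138, 148 and 146 in siNeg tumours, 168, 166 and 159.8 in D5W tumours and 129, 133 and 141 in day 0 tumours. Sec16a rose in D5W tumours (0.29 ± 0.06, edgeR adjusted p = 0.00663) and was 0.14 ± 0.06 and 0.12 ± 0.06 in siPD-L1 and siNeg tumours (adjusted p = 0.109 and 0.162).

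Prrc1, a protein that acts with the coat at ER exit sites and lies at chr18:57354741-57392956, had 51.0, 54.3, 51.5 and 55.3 CPM in siPD-L1 tumours and 59.3, 53.2, 57.4 and 55.6 CPM in siNeg tumours, against 70.0, 68.4 and 69.4 CPM in D5W tumours and 68.0, 67.8 and 63.4 CPM in day 0 tumours. No polymer-treated library reached the lowest D5W or day 0 library, though the smallest gap, between siNeg replicate 1 and day 0 replicate 3, was narrow. Its log2 fold changes were -0.32 ± 0.06 and -0.24 ± 0.06 against day 0 and -0.38 ± 0.06 and -0.30 ± 0.06 against D5W, in siPD-L1 and siNeg tumours. Its place among the genes called in siNeg tumours was lost without day 0 replicate 1 (log2 fold change -0.22) or day 0 replicate 2 (-0.22).

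Sec23a, which speeds GTP hydrolysis by Sar1, had 65.8, 77.0, 77.6 and 66.3 CPM in siPD-L1 tumours, 70.1, 65.3, 66.0 and 61.9 in siNeg tumours, 88.4, 84.2 and 91.8 in D5W tumours and 76.5, 79.0 and 81.2 in day 0 tumours. It fell in siNeg tumours (-0.26 ± 0.07, edgeR adjusted p = 0.0222) and was -0.14 ± 0.07 in siPD-L1 tumours (adjusted p = 0.182). The siNeg call was lost without any 1 day 0 library (0.058, 0.065 and 0.081) or without siNeg replicate 3 or 4 (0.0503 and 0.0682). Its paralogue Sec23b was -0.01 ± 0.06, -0.05 ± 0.06 and 0.11 ± 0.06 in siPD-L1, siNeg and D5W tumours. Sec24a had 54.5, 55.5, 52.1 and 53.0 CPM in siPD-L1 tumours, 54.7, 45.8, 51.0 and 54.1 in siNeg tumours, 66.6, 60.8 and 71.1 in D5W tumours and 51.1, 52.7 and 52.5 in day 0 tumours. The D5W libraries were above all others, and Sec24a rose in D5W tumours (0.35 ± 0.08, adjusted p = 0.00706), a call lost when the trend with GC content and length was removed (log2 fold change 0.02, adjusted p = 0.874). Sec24b was 0.19 ± 0.08 and 0.21 ± 0.08 (adjusted p = 0.103 and 0.0832) and Sec24c -0.03 ± 0.07 and 0.02 ± 0.07 in siPD-L1 and siNeg tumours.

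In the outer coat, Sec13 fell in both polymer groups (-0.38 ± 0.08 in siPD-L1 and -0.40 ± 0.08 in siNeg tumours, adjusted p = 0.00645 and 0.00519) and was -0.21 ± 0.09 in D5W tumours (adjusted p = 0.109). Its partner Sec31a was -0.14 ± 0.08, -0.15 ± 0.08 and 0.16 ± 0.08, with no call. Sar1a and Sar1b encode the GTPase that starts coat assembly. Sar1a was -0.06 ± 0.06, -0.14 ± 0.06 and 0.05 ± 0.06 with no call, and Sar1b fell in D5W tumours (-0.39 ± 0.13, adjusted p = 0.0435), a call lost in 14 of the 25 alternative settings, among them leaving out day 0 replicate 2 (0.178) or D5W replicate 3 (0.163). Sar1b and Sec24a start 52 bases apart on chromosome 11, on opposite strands and pointing away from each other. In D5W tumours against day 0 the COPII median was 0.11, with 1 gene lower and 2 higher, and it was -0.01 after the trend with GC content and length was removed. These COPII counts are near the share of all tested genes, of which 9.69% were called lower and 11.8% higher.

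Few genes of the COPI coat passed the test. Of 7 genes, 2 fell in siPD-L1 tumours (median -0.07), 1 in siNeg tumours (median -0.11) and 1 in D5W tumours (median 0.05, or -0.19 after the trend with GC content and length was removed). The shares of all tested genes called lower were 10.4%, 7.91% and 9.69% in that order, so 1 of 7 is near the share of all genes. Cope, the epsilon subunit at chr8:70302518-70312993, had 127, 148, 117 and 129.5 CPM in siPD-L1 tumours, 130.3, 136, 135 and 123 in siNeg tumours, 146, 145 and 132 in D5W tumours and 188, 182 and 175 in day 0 tumours. The day 0 libraries were above all others. Cope fell by 0.48 ± 0.07 in siPD-L1, 0.47 ± 0.07 in siNeg and 0.37 ± 0.08 in D5W tumours (log2 scale, edgeR adjusted p = 0.000821, 0.00106 and 0.00708), and the D5W call was lost with scaling by library totals alone (-0.28, adjusted p = 0.105). Copz1, a zeta subunit, had 113, 127, 112 and 123 CPM in siPD-L1 tumours, 141, 134, 128 and 125 in siNeg tumours, 143, 143 and 101 in D5W tumours and 164, 150.5 and 156 in day 0 tumours, and fell in siPD-L1 tumours (-0.40 ± 0.10, adjusted p = 0.0134, and 0.0703 without day 0 replicate 1). It was -0.25 ± 0.10 in siNeg and -0.29 ± 0.11 in D5W tumours (adjusted p = 0.104 and 0.0729).

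The 5 larger COPI subunits, Copa, Copb1, Copb2, Copg1 and Arcn1, passed in no comparison with day 0. Copa had 373, 393, 371 and 366 CPM in siPD-L1 tumours, 395, 372, 380.5 and 353 in siNeg tumours, 419.7, 411 and 399 in D5W tumours and 391, 393 and 403 in day 0 tumours, with all groups close together. Copb2 had 307, 256, 275 and 236 CPM in siPD-L1 tumours, 245, 228, 237 and 227 in siNeg tumours, 272, 276 and 394 in D5W tumours and 286, 266 and 276 in day 0 tumours, with D5W replicate 3 far above the other D5W libraries. The log2 fold changes of these 5 lay between -0.24 and 0.21. With the trend with GC content and length removed, 6 of the 7 COPI genes were called lower in siPD-L1 tumours (median -0.31) and 6 in siNeg tumours (median -0.32), so the COPI counts depend on that choice.

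In siPD-L1 and siNeg tumours the cargo and retrieval receptors had the lowest medians of the 5 machines. Of 8, 6 fell in siPD-L1 tumours (median -0.50), 5 in siNeg tumours (median -0.39) and 2 in D5W tumours (median -0.24) against day 0, Kdelr3 among them in each. The shares of all tested genes called lower were 10.4%, 7.91% and 9.69% in that order. Kdelr3 encodes 1 of the 3 KDEL receptors and lies at chr15:79516411-79527739 on the plus strand. It had 5.67, 6.92, 5.92 and 6.62 CPM in siPD-L1 tumours and 6.06, 6.48, 7.26 and 4.40 CPM in siNeg tumours, against 13.2, 12.4 and 12.8 CPM in D5W tumours and 17.6, 19.4 and 15.8 CPM in day 0 tumours. The polymer-treated libraries did not reach the lowest D5W library, and the D5W libraries did not reach the lowest day 0 library. The group means were 6.28 ± 0.584 CPM in siPD-L1 and 6.05 ± 1.21 CPM in siNeg tumours, against 12.8 ± 0.396 CPM in D5W and 17.6 ± 1.80 CPM in day 0 tumours (SD, n = 4, 4, 3 and 3). The log2 fold changes were -1.48 ± 0.14 and -1.54 ± 0.14 in siPD-L1 and siNeg tumours against day 0, -1.02 ± 0.14 and -1.08 ± 0.14 against D5W, and -0.46 ± 0.15 in D5W tumours against day 0. Its place among the genes called in D5W tumours was lost without any 1 D5W library, day 0 replicate 1 or 2, or siNeg replicate 1, where the log2 fold change was -0.48 to -0.39, and with library totals alone (-0.36) or the trend with GC content and length removed (-0.26). Ddx17, which overlaps 4 exonic bases of Kdelr3 on the opposite strand, rose in siPD-L1 tumours (0.34 ± 0.10, adjusted p = 0.0281) and siNeg tumours (0.35 ± 0.10, adjusted p = 0.0284) against day 0.

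Kdelr1 and Kdelr2 encode the more abundant KDEL receptors. Kdelr1 had 63.3, 71.9, 64.1 and 78.4 CPM in siPD-L1 tumours, 89.2, 85.3, 83.4 and 89.0 in siNeg tumours, 89.2, 95.6 and 55.7 in D5W tumours and 111, 103 and 104 in day 0 tumours. It fell in siPD-L1 tumours (-0.61 ± 0.14, adjusted p = 0.00675) and was -0.29 ± 0.14 in siNeg and -0.40 ± 0.15 in D5W tumours (adjusted p = 0.159 and 0.0637). Kdelr2 had 93.4, 118, 91.6 and 100.2 CPM in siPD-L1 tumours, 111, 99.3, 99.6 and 99.1 in siNeg tumours, 137, 130.5 and 106 in D5W tumours and 143, 142 and 145 in day 0 tumours. It fell in both polymer groups (-0.51 ± 0.10 in siPD-L1 and -0.49 ± 0.10 in siNeg tumours, adjusted p = 0.00258 and 0.00362) and was -0.20 ± 0.10 in D5W tumours (adjusted p = 0.166).

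Mcfd2 and Lman1 form a cargo receptor known in humans for carrying coagulation factors out of the ER. Mcfd2, at chr17:87254443-87265935, had 37.7, 38.6, 37.5 and 37.4 CPM in siPD-L1 tumours, 37.7, 35.7, 38.2 and 33.9 in siNeg tumours, 40.4, 44.2 and 42.8 in D5W tumours and 55.9, 63.2 and 50.0 in day 0 tumours. The 3 day 0 libraries stood above the other 11, and the D5W libraries above both polymer groups. Mcfd2 fell by 0.57 ± 0.07 in siPD-L1, 0.63 ± 0.07 in siNeg and 0.41 ± 0.08 in D5W tumours (log2 scale, edgeR adjusted p = 0.000225, 0.000132 and 0.00389), and the D5W call was lost with scaling by library totals alone (-0.31, adjusted p = 0.0591). Lman1 was -0.07 ± 0.09, -0.19 ± 0.09 and 0.17 ± 0.09, with no call. Surf4, a receptor for soluble cargo, fell in siPD-L1 tumours (-0.49 ± 0.09, adjusted p = 0.00176) and siNeg tumours (-0.41 ± 0.09, adjusted p = 0.0057), with -0.27 ± 0.09 in D5W tumours (adjusted p = 0.0522). Of the p24 proteins, which cycle between ER and Golgi, Tmed2 fell in siPD-L1 tumours (-0.28 ± 0.07, adjusted p = 0.0171, and 0.0739 and 0.0885 without day 0 replicate 1 or 2) and siNeg tumours (-0.37 ± 0.07, adjusted p = 0.00424). Tmed10 was -0.16 ± 0.07, -0.07 ± 0.07 and -0.08 ± 0.07 in siPD-L1, siNeg and D5W tumours, with no call.

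Within families, the shares of Kdelr3, Sec24d and Sec16b were lower in the polymer-treated groups. Kdelr3 made up 4.61% ± 0.0972 of KDEL receptor CPM per kb in siPD-L1 and 4.03% ± 0.842 in siNeg tumours, against 7.72% ± 1.47 in D5W and 8.46% ± 0.869 in day 0 tumours (SD, n = 4, 4, 3 and 3). Sec24d made up 17.9% ± 0.869 and 18% ± 1.2 of Sec24 CPM per kb in siPD-L1 and siNeg tumours, against 23% ± 1.04 in D5W and 24.6% ± 1.05 in day 0 tumours. For both genes the polymer-treated and other ranges did not overlap. Sec16b made up 0.886% ± 0.162 and 0.661% ± 0.268 of Sec16 CPM per kb in siPD-L1 and siNeg tumours, against 2.59% ± 1.32 in D5W and 2.56% ± 0.416 in day 0 tumours. Kdelr3, Sec24d and Sec16b were chosen for being low in these libraries, so these shares are a description.

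**Figure D4:**
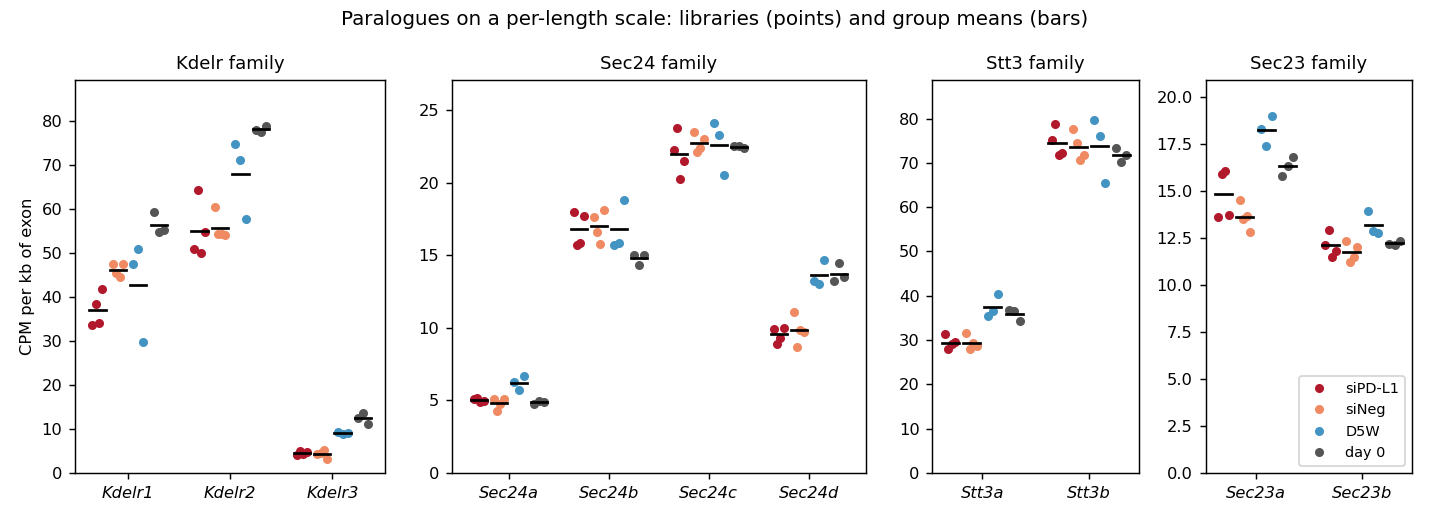
CPM per kilobase of exon in every library (points) with group means for the members of the Kdelr, Sec24, Stt3 and Sec23 families, with siPD-L1, siNeg, D5W and day 0 from left to right. Kdelr3 is the least abundant KDEL receptor in every group, and the ratio of Stt3a to Stt3b averages 0.396 and 0.399 in siPD-L1 and siNeg tumours against 0.514 and 0.500 in D5W and day 0 tumours.

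Between siPD-L1 and siNeg tumours 0 of the 48 members passed edgeR's test, where 0% of all tested genes were called. With DESeq2 0 members passed, where 0.198% of all tested genes were called higher and 0.152% lower. With limma voom 0 members passed, where 0% of all genes were called. The members' median log2 fold change was 0.01, against -0.01 for all genes, and 1 member and 1471 of all genes had an unadjusted p under 0.05. That member was Kdelr1, with 63.3 to 78.4 CPM in siPD-L1 tumours and 83.4 to 89.2 CPM in siNeg tumours (-0.32 ± 0.13, adjusted p = 0.537). Kdelr1 and Tmed10 were the 2 members with all siPD-L1 libraries under all siNeg libraries (3.19% of all tested genes had this). Ssr4 was -0.21 ± 0.11 (adjusted p = 0.593), and the fold changes of Kdelr3, Sec24d and Prrc1 were 0.05 ± 0.13, -0.04 ± 0.07 and -0.09 ± 0.05. These results do not show that the groups were alike.

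Against D5W tumours, 3 members were called lower in siPD-L1 tumours, where 0.0292% of all tested genes were called lower, and 4 in siNeg tumours, where 0.0817% were. With both polymer groups pooled, 8 were called lower, where 0.228% of all genes were: Sec61a1, Stt3a, Sec16b, Sec23a, Sec24a, Sec24d, Prrc1 and Kdelr3. Their log2 fold changes in the pooled comparison were -0.33 ± 0.06, -0.35 ± 0.06, -1.93 ± 0.27, -0.36 ± 0.06, -0.33 ± 0.06, -0.49 ± 0.07, -0.34 ± 0.05 and -1.05 ± 0.12 in that order. The members called in siPD-L1 tumours were Sec24d, Prrc1 and Kdelr3, and those called in siNeg tumours Sec16b, Sec23a, Sec24d and Kdelr3. These counts were in view when the list was drawn up and are a description. They varied with the fit: with only the groups compared they were 0, 0 and 4 for siPD-L1, siNeg and the pooled comparison, and with DESeq2 9, 18 and 14, where 0.811%, 1.75% and 1.58% of all genes were called lower.

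The 6 members with the TGACGTGG match had a median log2 fold change of -0.33 in siPD-L1 and -0.37 in siNeg tumours against day 0, with 3 and 4 of them lower, and 0.11 in D5W tumours, with 1 lower. The 34 members with a window and no match had medians of -0.25, -0.26 and -0.05, with 16, 13 and 9 lower. The shares called lower among all 11857 tested genes with a window were 11.5%, 8.43% and 10.7%, so 1 of 6 is near that share. Sec16b, Sec24d and Kdelr3, which are among the 6, are genes that led to the list. They were the 3 called lower in siPD-L1 tumours, and with Sec23a the 4 in siNeg tumours. Copb1 and Copb2 were called in neither group. The values of the 6 thus rest largely on genes chosen for being low, and no difference from the 34 is read from them. Among genes outside the list, the 115 tested genes with the match had medians of -0.01, -0.02 and 0.02, near those of all 11857 tested genes with a window (0.02, 0.01 and 0.01). Against D5W the medians of these 115 were -0.03 in siPD-L1, -0.07 in siNeg and -0.05 in pooled tumours, with 59.1%, 64.3% and 66.1% of them below 0, against 48.8%, 47% and 47.5% of the 11857. The match is a description of these letters, and binding was not measured.

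Exon length moved with the fold changes. Across the 48 members, Spearman's rho between exon length and the log2 fold change against day 0 was 0.68 in siPD-L1, 0.63 in siNeg and 0.82 in D5W tumours, and across all 17141 tested genes it was 0.32, 0.30 and 0.35. The genes share the same libraries, and these are descriptions. Of the 11 members with under 3000 bases of exon (Ddost, the 3 KDEL receptors, Mcfd2, Sar1b, Sec61b, Sec61g, Spcs1, Ssr2 and Tmed2), 10 were lower in siPD-L1, 8 in siNeg and 8 in D5W tumours, with medians of -0.57, -0.49 and -0.41. Of the 37 longer members, 14 were lower in siPD-L1, 15 in siNeg and 3 in D5W tumours, with medians of -0.14, -0.19 and 0.05, and 2 were higher in D5W tumours. The shares of all tested genes called lower were 10.4%, 7.91% and 9.69% in that order, and 11.8% were called higher in D5W tumours. The D5W counts of the longer members are thus not above the share of all genes. After the trend with GC content and length was removed, 37 of 48 members were lower in siPD-L1 tumours (10.7% of all genes). The median of the members was then -0.34 in siPD-L1, -0.33 in siNeg and -0.16 in D5W tumours.

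**Figure D5:**
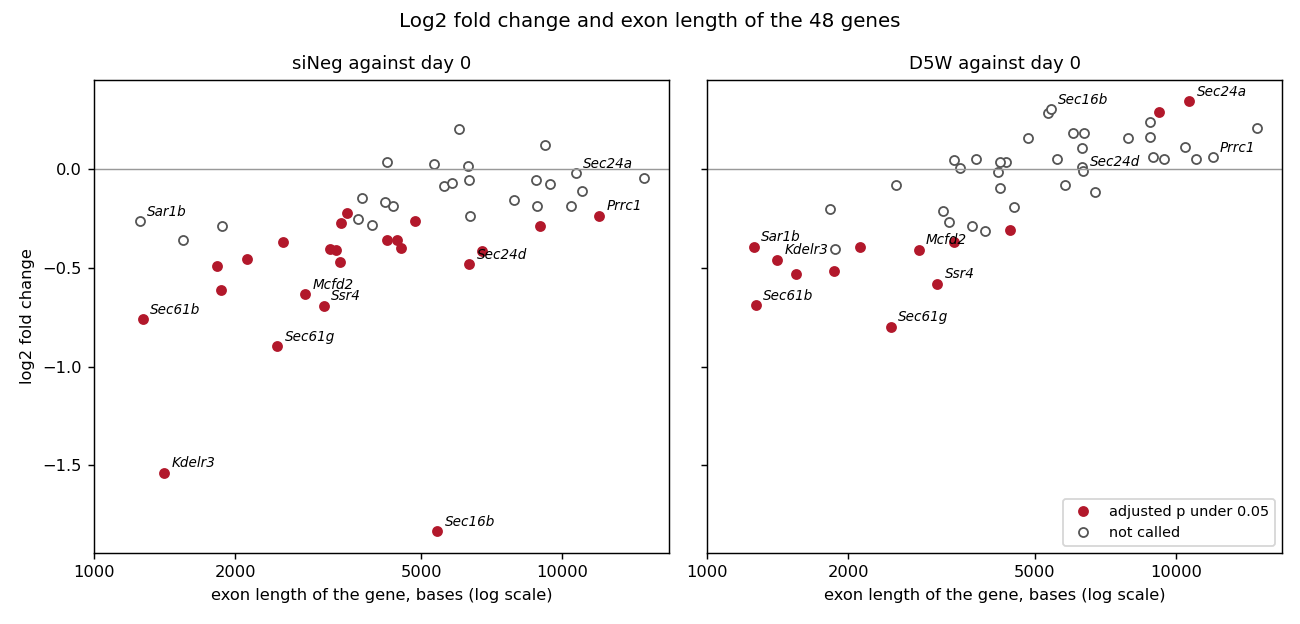
Log2 fold change against day 0 (vertical axis) by exon length in bases (horizontal log axis) for the 48 genes, in siNeg tumours and in D5W tumours. Short genes such as Sec61g, Sec61b and Spcs1 are below 0 in both panels, and rho is 0.63 in the siNeg panel and 0.82 in the D5W panel.

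Markers of other cells were low beside those of pigment cells. The summed CPM of 10 melanocyte markers was 23363 to 28451 in siPD-L1 and 29055 to 31935 in siNeg tumours, against 23362 to 27145 in D5W and 25552 to 26398 in day 0 tumours. The sum of 13 fibroblast markers, cells that secrete matrix, was 186 to 535 in siPD-L1 and 219 to 348 in siNeg tumours, against 272 to 1026.5 in D5W and 272 to 327 in day 0 tumours. In D5W tumours it was 758, 272 and 1026.5, while Kdelr3 had 13.2, 12.4 and 12.8 CPM in the same libraries. The sum of 9 plasma and B cell markers was 36.7 to 48.8 and 42.8 to 46.1 in siPD-L1 and siNeg tumours, against 34.1 to 44.4 in D5W and 47.2 to 52.9 in day 0 tumours, most of it Sdc1. The sum of 8 macrophage markers was 67.3 to 159 in siPD-L1 and 96.4 to 230.2 in siNeg tumours, against 139 to 236 in D5W and 170.0 to 207 in day 0 tumours, with Itgam at 0 in all libraries. Endothelial sums were 48.8 to 68.0, 45.7 to 57.5 and 47.4 to 68.3 in siPD-L1, siNeg and D5W tumours, against 28.6 to 37.5 in day 0 tumours, and sums of 7 keratinocyte markers were 2.64 to 2.99 and 0.949 to 4.40 in siPD-L1 and siNeg tumours, against 10.5 to 14.8 in D5W and 11.1 to 28.0 in day 0 tumours. The keratinocyte sum was nearly all Cdsn, while the other 6 markers had medians under 0.05 CPM, and of the 3 that passed the filter 2 had fold changes above 0 in both polymer groups against day 0. The sum of 7 T cell markers was 1.80 to 3.43 in siPD-L1 and 1.96 to 5.46 in siNeg tumours, against 1.54 to 5.00 in D5W and 1.35 to 2.19 in day 0 tumours, and all 7 had fold changes above 0 against day 0 in the 3 day 7 groups (median log2 fold change 0.58 in siPD-L1, 1.02 in siNeg and 0.38 in D5W tumours), with 1 called, in siNeg tumours. Their part in the results was not tested.

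The neighbouring steps of the pathway were covered by 60 further genes outside the 48. Of these, 23 fell and 3 rose in siPD-L1 tumours (median -0.20), 20 fell and 1 rose in siNeg tumours (median -0.16), and 16 fell and 4 rose in D5W tumours (median -0.09) against day 0, where 10.4%, 7.91% and 9.69% of all tested genes were called lower and 11.5%, 10.5% and 11.8% higher. In that order of groups, 8, 6 and 7 of 12 other glycosylation genes fell, 4, 6 and 1 of 12 targeting genes, 2, 2 and 2 of 12 ER exit genes, 3, 3 and 1 of 12 COPI and Golgi genes, and 6, 3 and 5 of 12 cargo receptor genes; 1 or 2 of 12 is near the share of all genes. Krtcap2, an accessory subunit of the oligosaccharyltransferase, fell by 1.23 ± 0.15 in siPD-L1 tumours (adjusted p = 0.000186), and Alg5, which makes a sugar donor for the ER, fell by 0.49 in siPD-L1 and 0.50 in siNeg tumours (adjusted p = 0.000121 and 0.000104). Sec61a2, the second channel gene, rose in all 3 groups: it averaged 41.2 CPM in siPD-L1, 40.4 in siNeg and 44.9 in D5W tumours, against 27.8 in day 0 tumours (0.57, 0.54 and 0.69 on the log2 scale, adjusted p = 0.00289, 0.00434 and 0.00148). Copz2, the alternative zeta subunit of COPI, fell by 0.90, 0.56 and 0.65 in siPD-L1, siNeg and D5W tumours (adjusted p = 0.000186, 0.0043 and 0.0032), and Tmed3, another p24 protein, by 0.73, 0.60 and 0.50 (adjusted p = 0.000954, 0.00346 and 0.0128).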

How the data were processed

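Bulk RNA-seq counts of 14 mouse tumour libraries were used. Per the labels' protocols, RNA was extracted with Qiagen RNeasy and libraries were made with a stranded TruSeq kit. The submitters' processing notes name FastQC 0.11.3, STAR, featureCounts, edgeR and the build GRCm38, with annotation release, strand setting and other versions not given in the sources used. The authors deposited whole-number counts per Ensembl gene with no normalization, 60166278 to 85941309 per library. Symbols came from GENCODE M21: 37386 of the identifiers matched and 23 did not.

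From these counts, levels are CPM with TMM factors (log2 CPM with a prior count of 2). Fold changes and p-values come from edgeR 4.0.16 (R 4.3.3, robust quasi-likelihood fit of all 14 libraries together, filterByExpr, 17141 genes, Benjamini-Hochberg adjustment, threshold 0.05); the biological coefficient of variation was 16.6%. Log2 fold changes are given ± standard error. The scripts were tested on simulated data. Exon lengths are the union of annotated exons.

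The members and lists were chosen with earlier results of these data known. Any member may be named. Values in every library are given for Kdelr3, Sec24d, Prrc1 and Sec16b, and for some paralogues. They are also given for most of the members with the 2 smallest p-values per machine in each comparison with day 0 or the smallest in siPD-L1 against siNeg. Rpn2, Dad1 and the paralogues Sar1a, Sar1b, Sec23b, Sec24b and Sec24c are given as fold changes only. Other lists are given as counts with at most 2 examples each, by p-value. The limit of 3000 bases, the paralogue shares, Ddx17, Hspa5, Dnajb9, Xbp1 and the Creb3 genes were chosen after their values were seen. Alternatives were other scalings and filters, DESeq2 1.42.0, voom in limma 3.58.1, a fit of the compared groups alone, a replicate block, removal of mitochondrial and ribosomal RNA-like genes, removal of the trend with GC content and length, and leaving out each library. Same-numbered libraries were checked for pairing: of 19 pairs, 6 had a correlation over 0.1 (range -0.322 to 0.248, against -0.444 to 0.42 for libraries with different numbers). With so few libraries in a group this check can neither show nor exclude a pairing by number, and the labels state none.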

Additional observations from a re-analysis of the deposited data

Results flagged for a closer look

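Among the 96 groups of 4 libraries formed by the 48 members, 7 had a library far from the other 3 by a gap test that marks about 1 group in 20 by chance. Sec61g had 34.4 CPM in siNeg replicate 2, against 28.8 to 29.1 CPM in the other siNeg libraries. Sec13 had 157 CPM in siPD-L1 replicate 2, against 122 to 127 CPM in the other siPD-L1 libraries, and Sar1a had 108 CPM in siPD-L1 replicate 4, against 121 to 123 CPM. In siNeg replicate 1, Copb1 had 174 CPM against 162 to 163 CPM in the others, and Kdelr2 had 111 CPM against 99.1 to 99.6 CPM. Tmed2 was set apart in both groups, with 163 CPM in siPD-L1 replicate 1 against 149.6 to 151 CPM, and 153 CPM in siNeg replicate 1 against 140.2 to 142 CPM.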

How the results depend on the processing

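In siPD-L1 and siNeg tumours against day 0 the members' median stayed below 0 under each of the 25 alternatives run. In siNeg tumours the fit of the compared groups alone gave 35 lower and 1 higher, and removing the trend with GC content and length gave a median of -0.3322; in siPD-L1 tumours that removal gave 37 lower and a median of -0.3401. In D5W tumours against day 0, library totals alone gave 5 lower (2.21% of all genes) and a median of 0.0908 (all genes 0.0916). The compared groups alone gave 7 lower (5.39%), and removing the trend gave 1 higher (7.27%) and a median of -0.1565. Against D5W, library totals alone gave medians of -0.2576, -0.2493 and -0.2485 in siPD-L1, siNeg and pooled tumours. In siPD-L1 tumours 5 members were then lower (0.35% of all genes). DESeq2 gave 9, 18 and 14 lower (0.811%, 1.75% and 1.58% of all genes), the compared groups alone 0, 0 and 4 (0.00605%, 0% and 0.111%), and voom 1 in siNeg tumours (0.0408%). With the replicate number as a block, though the labels state no pairing by number, 0, 1 and 1 members were lower against D5W (0%, 0.0175% and 0.0117% of all genes). Against day 0 the block gave 25, 22 and 13 lower in siPD-L1, siNeg and D5W tumours (10.1%, 6.53% and 10.1%). Values of single genes turned sign as follows. Sec24d in D5W tumours against day 0, near 0 throughout, was 0.0828 with library totals, 0.0074 with a minimum of 1 CPM in 3 libraries, 0.0258 without day 0 replicate 2, 0.0071 without D5W replicate 1 and 0.0195 without D5W replicate 2 (-0.0659 to 0.0258 with 1 library left out). Prrc1 was -0.2722 in D5W tumours with the trend removed, Sec16b was -0.176 without D5W replicate 3 and -0.1759 without that library and siPD-L1 replicate 1 (highest 0.5246), and between siPD-L1 and siNeg tumours Sec24d was 0.0181 without siNeg replicate 1 (lowest -0.1005) and Kdelr3 -0.0712 without siNeg replicate 4 (highest 0.1541). Leaving out 1 library at a time, members lower ranged from 20 to 27 in siPD-L1, 17 to 31 in siNeg and 6 to 13 in D5W tumours against day 0, members higher from 0 to 1, 0 to 1 and 2 to 2, and medians from -0.3238 to -0.2226, -0.2953 to -0.2407 and -0.0625 to 0.0136 (-0.0626 in D5W tumours without both D5W replicate 3 and siPD-L1 replicate 1). These counts of members lower, and those against D5W below, take in the fit without both D5W replicate 3 and siPD-L1 replicate 1. Across the same fits the share of all genes called lower ranged from 4.16 to 14.8% in siPD-L1, 2.76 to 12.8% in siNeg and 2.7 to 11% in D5W tumours. Between siPD-L1 and siNeg tumours 0 members were called and the median ranged from -0.013 to 0.031. Against D5W, members lower ranged from 0 to 3 in siPD-L1, 0 to 5 in siNeg and 1 to 8 in pooled tumours, and medians from -0.1983 to -0.1665, -0.2125 to -0.1764 and -0.2032 to -0.1629. The share of all genes called lower against D5W ranged from 0 to 0.0525%, 0 to 0.644% and 0.0174 to 0.889% in that order. The cause of these changes was not tested. The members with the fewest counts were Sec16b (24 to 314), Srp54a (354 to 1024) and Kdelr3 (315 to 1244).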

Other observations

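A list of ER chaperones, folding enzymes and related genes was mostly lower in polymer-treated tumours than at day 0. Many of its products work inside the compartment that the translocon fills, and some are cargo of the KDEL receptors. Others are not chaperones, among them Xbp1, Atf6, Sel1l, Syvn1 and Herpud1. Of the 20 genes listed, 11 fell and 0 rose in siPD-L1 tumours (median log2 fold change -0.36), 14 fell and 0 rose in siNeg tumours (median -0.43), and 2 fell and 1 rose in D5W tumours (median -0.10). Of all tested genes, 10.4%, 7.91% and 9.69% were called lower in these comparisons and 11.5%, 10.5% and 11.8% higher, so the D5W counts of this list are near the share of all genes. Hspa5, the main ER chaperone BiP, averaged 1162 CPM in siPD-L1 and 1073 CPM in siNeg tumours, against 1434 CPM in D5W and 1542 CPM in day 0 tumours. It fell by 0.41 ± 0.12 in siPD-L1 and by 0.52 in siNeg tumours against day 0 on the log2 scale (edgeR adjusted p = 0.024 and 0.00798), with -0.10 in D5W tumours. Sdf2l1, a BiP cofactor, fell by 0.82 ± 0.12 in siPD-L1, 0.73 in siNeg and 0.45 in D5W tumours (adjusted p = 0.000641, 0.00134 and 0.0259). Pdia4, a disulphide isomerase, fell by 0.51 in siPD-L1 and 0.64 in siNeg tumours (adjusted p = 0.00473 and 0.00126). Dnajb9, a BiP cochaperone and stress-induced gene, rose in D5W tumours (0.63 ± 0.20, adjusted p = 0.0376).

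Xbp1, the factor known to bind TGACGTGG-like elements, was among the genes that fell, by 0.38 in siPD-L1 and 0.26 in siNeg tumours (adjusted p = 0.00516 and 0.0398), with -0.13 in D5W tumours. Of the Creb3 family, ER-resident factors known in other systems for control of secretory genes and looked up after the members' values were seen, Creb3 fell by 0.55 in siPD-L1, 0.41 in siNeg and 0.38 in D5W tumours (adjusted p = 0.000352, 0.0025 and 0.00588). Creb3l1 was -0.20, -0.20 and 0.09, and Creb3l2 -0.03, 0.02 and 0.09, in siPD-L1, siNeg and D5W tumours, with no call. RNA levels of these genes say nothing of the processed, active forms of their proteins.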
